A study of Mus musculus with 8 samples.

Results

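The genes described here were the ligands and receptors of the tumour necrosis factor (TNF) superfamily, together with the adaptors that bind the receptors and the genes named after their induction by TNF. They were taken by name from the annotation of the array. A probe belonged if its gene symbol began with Tnfrsf, Tnfsf or Tnfaip, or with Traf followed by a digit, or if it was Tnf, Lta, Ltb, Ltbr, Eda, Edar, Edaradd, Eda2r, Fas or Cd40. This gave 57 genes on 94 probes, of 16593 genes and 25697 probes in all. Expression was measured in whole skin excised from the back of 8 C57BL6 mice of 10 weeks of age. In the 4 KO mice both Med1 alleles were floxed and Cre was driven by the keratin 14 (K14) promoter, and the 4 Control mice, labelled WT, carried the floxed Med1 alleles and were littermates without Cre by the study's methods. K14 is active in keratinocytes, so the deletion was aimed at these cells, and whole skin holds other cells too. Each mouse had its own Illumina bead array, and values are background-corrected, quantile-normalised log2 signals.

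Ligands of the TNF superfamily are mostly trimers on the cell surface that are also shed, and they bind receptors with cysteine-rich repeats outside the cell. Receptors with a death domain recruit adaptors of their own kind and can start apoptosis, and the other signalling receptors bind TRAF proteins directly. Both routes lead to NF-kB and JNK. In skin the best known branch is ectodysplasin (Eda), whose receptor Edar and adaptor Edaradd are needed for hair follicles, teeth and sweat glands to form.

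The whole table gives the setting for the values of single genes. On each array between 14593 and 15149 probes were detected, and the median raw signal was between 152.2 and 193.6. The brightest probe of Med1, the targeted gene, had log2 signals of 8.26, 7.80, 8.39 and 8.45 in KO skin, against 9.05, 8.99, 8.92 and 9.10 in Control skin. On this probe all 4 KO mice were below all Control mice, by 0.79 (SE 0.14, adjusted p = 6.49e-04, limma). A dimmer Med1 probe was lower too, at -0.69 (SE 0.18, adjusted p = 0.00861), but its groups overlapped. The dimmest gave -0.23 with overlap and without a call (SE 0.17, adjusted p = 0.252). It was detected on 2 of 4 KO and 4 of 4 Control arrays. Which exons the Med1 probes read, and so whether they fall in the floxed part, was not analysed here. The RNA of marker genes of several cell types moved with genotype. All 9 tested genes of a hair matrix and shaft list were higher in KO skin (100%, against 29.4% of all genes), with a median change of 7.34. Lef1 and Foxn1 of this list were detected on 4 of 4 KO and 0 of 4 Control arrays. They could be tested through KO skin alone, so their place among the 9 is a description. Msx2 and Krt31 were detected on 1 Control array, so their Control values are close to background too. The mean level of the list per mouse was 11.63 to 11.73 in KO skin, against 5.10 to 6.66 in Control skin. Control mice 1 and 3 stood apart for some hair keratins, as in Krt27 with 14.85, 14.86, 14.81 and 15.05 in KO skin, against 9.58, 5.56, 9.36 and 5.69 in Control skin. Without these 2 Control mice, a choice made after seeing the data, 7 members were higher and 14 lower. All 8 macrophage markers, 6 of 7 endothelial markers, all 6 fibroblast markers and all 6 skeletal muscle markers were lower, with median changes of -0.75, -1.17, -0.77 and -2.03. Itgam of the macrophage list was detected on 0 of 4 KO and 4 of 4 Control arrays. It could be tested through Control skin alone, so its place among the 8 is a description. Over all genes tested 34.4% were lower. Keratinocyte markers moved little, with 1 higher and 1 lower of 5 and a median of -0.10. In whole skin, fewer cells of a type and less RNA per cell cannot be told apart, and the part of cell make-up in the results below was not tested.

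The promoters of 4 members on which the results turn are printed first, since the members below were read at the RNA level and these are the sequences that their transcripts start from. Edar and Edaradd are the receptor and the adaptor that were higher together, and Fas and Traf2 are a receptor and an adaptor that were lower. Each run holds 300 bases that end shortly after the annotated start, 5′ to 3′ along the gene, from RefSeq (GRCm38.p6). Edar lies at chr10:58675647-58675946 on the minus strand, Edaradd at chr13:12520401-12520700 on the minus strand, Fas at chr19:34290409-34290708 on the plus strand and Traf2 at chr2:25546891-25547190 on the minus strand. Capitals mark matches, on either strand, to GGGANNNNCC, a form of the NF-kB site, or to CTTTGA, the core of the site of the TCF/LEF factors. No match to one motif overlapped a match to the other here.
Edar: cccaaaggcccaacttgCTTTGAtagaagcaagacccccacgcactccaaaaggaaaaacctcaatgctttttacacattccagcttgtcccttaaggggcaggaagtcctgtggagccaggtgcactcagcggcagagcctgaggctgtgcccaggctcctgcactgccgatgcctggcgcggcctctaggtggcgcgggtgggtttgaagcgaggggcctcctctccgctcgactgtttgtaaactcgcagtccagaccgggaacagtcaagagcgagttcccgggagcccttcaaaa
Edaradd: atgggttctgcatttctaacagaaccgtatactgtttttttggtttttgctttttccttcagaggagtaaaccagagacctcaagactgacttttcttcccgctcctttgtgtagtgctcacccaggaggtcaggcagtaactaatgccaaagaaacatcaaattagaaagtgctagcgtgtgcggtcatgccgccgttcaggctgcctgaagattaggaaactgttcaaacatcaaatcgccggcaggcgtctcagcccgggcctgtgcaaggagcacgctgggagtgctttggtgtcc
Fas: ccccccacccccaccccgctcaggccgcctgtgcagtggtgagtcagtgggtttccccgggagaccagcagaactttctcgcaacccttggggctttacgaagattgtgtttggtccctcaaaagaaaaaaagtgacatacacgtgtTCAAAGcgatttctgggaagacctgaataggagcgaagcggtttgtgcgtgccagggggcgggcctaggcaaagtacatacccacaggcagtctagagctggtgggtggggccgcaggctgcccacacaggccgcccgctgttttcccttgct
Traf2: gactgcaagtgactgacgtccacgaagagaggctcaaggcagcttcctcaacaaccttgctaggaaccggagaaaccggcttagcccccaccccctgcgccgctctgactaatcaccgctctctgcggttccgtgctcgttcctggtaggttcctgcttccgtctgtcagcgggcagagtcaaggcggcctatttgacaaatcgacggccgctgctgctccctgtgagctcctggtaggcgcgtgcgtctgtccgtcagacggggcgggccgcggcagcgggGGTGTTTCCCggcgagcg

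Edar and Fas each held 1 TCF/LEF core, Traf2 held 1 NF-kB form just after its start, and Edaradd held neither. Of the 57 members, 47 matched the RefSeq table, with 52 promoters. The NF-kB form stood in 17 of these (32.7%), against 20.7% of 32851 promoters of all genes, and the TCF/LEF core in 8 (15.4%), against 16% of all. Among members with a promoter here, the NF-kB form was found for 0 of 7 that were higher in KO skin. It was found for 3 of 12 that were lower, namely Eda, Traf2 and Traf5. The promoters of Tnf, Ltb and Tnfaip3 held it too, and these genes did not pass the test. The TCF/LEF core was found for 2 of the 7 higher and 2 of the 12 lower members. A match shows only that the letters are present.

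Of the 57 genes, 37 had a probe detected on at least 4 of 8 arrays and were tested. Among these, 7 were higher in KO skin and 15 lower after Benjamini-Hochberg adjustment over all probes (limma, threshold 0.05), and 15 did not pass. The 7 include Tnfrsf13c, which passed the detection filter through KO skin alone. The share called was 59.5%, against a background of 63.8% of 10350 genes tested. In KO skin 18.9% of the members were higher, against 29.4% of all genes, and 40.5% were lower, against 34.4%. The median change was -0.15 over the members and -0.04 over all genes. Changes of at least 2-fold were called in 5 of 37 members (13.5%), against 17.3% of all genes, and 1 of the 5, Tnfrsf13c, has a lower bound of only 1.83-fold. No overlap between KO and Control mice was seen in 20 members (54.1%), of which 7 were above and 13 below, against 60.1% of all genes. These shares lie near the background and are no result about the members as a group. The 20 genes that were not tested were detected on no array (13 genes) or on 1 or 2 arrays (7 genes).

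**Figure D1:**
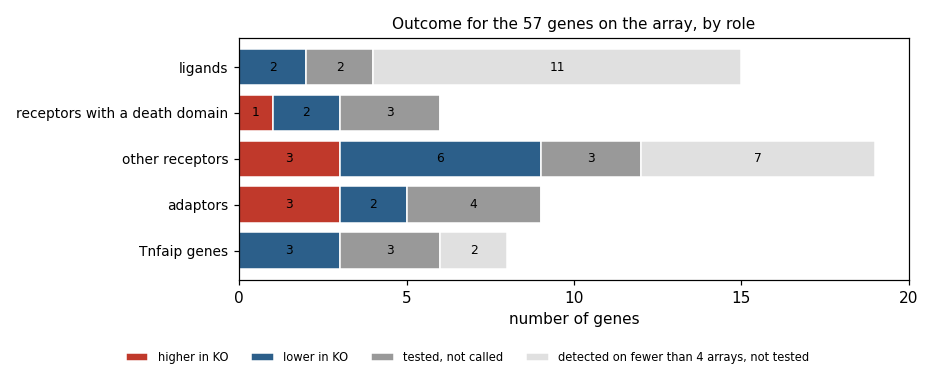
Number of genes of each role that were higher in KO skin, lower in KO skin, tested but not called, or detected on fewer than 4 arrays and not tested. Of 15 ligand genes 11 were not tested, while all 6 receptors with a death domain and all 9 adaptors were.

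Most ligands were not measurable in this skin. Of 15 ligand genes on the array 4 were tested, and 2 of these were lower in KO skin and none higher (50% called, against 63.8% of all genes). Tnfsf10 (the death ligand TRAIL), Tnfsf11 (RANKL, which drives osteoclast formation) and Tnfsf12 (TWEAK) were detected on 0 of 8 arrays, as were Tnfsf4, Tnfsf9, Tnfsf14, Tnfsf15 and Tnfsf18. Lta and Tnfsf8 were each detected on at most 1 array by any probe, and Tnfsfm13, a readthrough of Tnfsf12 and Tnfsf13, on 2.

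Tnf itself, the founding cytokine of the family, had log2 signals of 6.12, 5.26, 5.75 and 6.0 in KO skin, against 5.72, 5.96, 6.05 and 5.83 in Control skin. KO mouse 2 was the lowest of all, and the groups overlapped. The change was -0.11 (SE 0.17, adjusted p = 0.612), and without KO mouse 2 it was 0.07. Ltb, the membrane-bound lymphotoxin subunit, was also without a call at 0.36 (SE 0.18, adjusted p = 0.116).

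Tnfsf13b encodes BAFF, a survival factor for B cells that myeloid cells make. Its signals were 7.16, 7.39, 7.34 and 7.25 in KO skin, against 7.86, 7.66, 7.90 and 7.75 in Control skin, and the groups did not overlap. It was lower by 0.50 (change -0.50, SE 0.08, adjusted p = 5.38e-04), or 70.5% of the Control level, and the change was -0.31 without background correction. A second probe gave -0.30 (adjusted p = 0.0362). The mean level of the macrophage markers was 9.04 to 9.17 in KO skin, against 9.84 to 9.94 in Control skin, and its part in this change was not tested. For the comparisons of single genes, an exact two-sided permutation test over the 70 assignments of mice cannot go below p = 0.0286, and every gene without overlap reached that value.

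The ectodysplasin branch moved in opposite directions at its ligand and its receptor. Edar and Edaradd were higher in KO skin, while Eda was lower by a margin that did not hold in most other settings. Eda2r, the receptor of the second ectodysplasin form, was detected on 1 Control array and on 0 KO arrays.

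Eda had signals of 5.17, 5.57, 5.65 and 5.09 in KO skin, against 5.58, 5.65, 6.10 and 5.76 in Control skin. The groups overlapped, through KO mouse 3. The change was -0.40 (SE 0.16, adjusted p = 0.0484), and the call was lost in 11 of the 17 alternatives that tested it, with adjusted p between 0.0193 and 0.143. The change was -0.12 without background correction and -0.66 in the values normalized by the authors.

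Edar, which carries the signal through its death domain, had signals of 6.20, 6.17, 6.40 and 6.55 in KO skin, against 5.59, 4.93, 5.74 and 5.36 in Control skin. Every KO mouse was above every Control mouse, and Control mice 1 and 3 were the higher of their group. The change was 0.92 (SE 0.17, adjusted p = 9.57e-04), or 190% of the Control level. The probe was detected on 3 of 4 Control arrays, so it is close to background there, and without background correction the change was 0.31.

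Edaradd, the adaptor that links Edar to TRAF6 and NF-kB, had signals of 7.05, 6.73, 7.01 and 6.91 in KO skin, against 5.52, 5.47, 5.66 and 5.76 in Control skin. The gap between the groups was wider than the spread of either. The change was 1.32 (SE 0.10, adjusted p = 2.20e-06), or 2.51-fold, and it was 0.52 without background correction. Between KO and Control skin both genes moved in the direction of the hair matrix and shaft list given above. Within the Control mice Edaradd was highest in mouse 4, where Krt27 was 5.69. Its Control values were close together (SD 0.13), and a relation to hair keratins within the group was not tested. By the paper, KO skin of this line had shifted to the anagen stage of the hair cycle at 10 weeks, while Control skin was in telogen. By that account stage goes with genotype, so its part in the change of Edar, Edaradd or any other member cannot be told apart here. The part of the hair list in the change of Edar and Edaradd was not tested. Without Control mice 1 and 3, which had the higher hair keratins, the changes were 1.19 for Edar and 1.32 for Edaradd, and both calls were kept. This does not test the part of the list, since every KO mouse stayed far above the remaining Control mice for it.

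The death-domain receptors as a class had 1 member higher and 2 lower of 6 tested (50% called, against 63.8% of all genes). Fas, the classical receptor of apoptosis, had signals of 8.97, 9.02, 8.96 and 8.84 in KO skin, against 9.64, 9.71, 9.73 and 9.69 in Control skin. The 2 groups were tight and far apart. The change was -0.75 (SE 0.07, adjusted p = 8.83e-06), or 59.5% of the Control level. A dimmer Fas probe gave -0.25 (SE 0.09, adjusted p = 0.0397), so both probes fell while their sizes differed.

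Tnfrsf21, known as death receptor 6, had signals of 9.68, 9.78, 9.76 and 9.55 in KO skin, against 10.62, 10.51, 10.64 and 10.63 in Control skin. All KO mice were below all Control mice, and Control mouse 2 lay lowest of its group. The change was -0.91 (SE 0.08, adjusted p = 5.09e-06), and its second probe gave -0.52 (adjusted p = 0.00318).

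Tnfrsf1a, the main receptor for TNF, had signals of 8.88, 8.84, 8.73 and 8.79 in KO skin, against 8.75, 9.07, 8.97 and 8.62 in Control skin. The groups overlapped fully, and the change was -0.04 (SE 0.10, adjusted p = 0.765). Its other probes gave 0.04 and 0.11, also without a call. Tnfrsf10b, the TRAIL receptor of the mouse, and Tnfrsf25, known as death receptor 3, gave 0.08 and -0.15 and did not pass either.

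**Figure D2:**
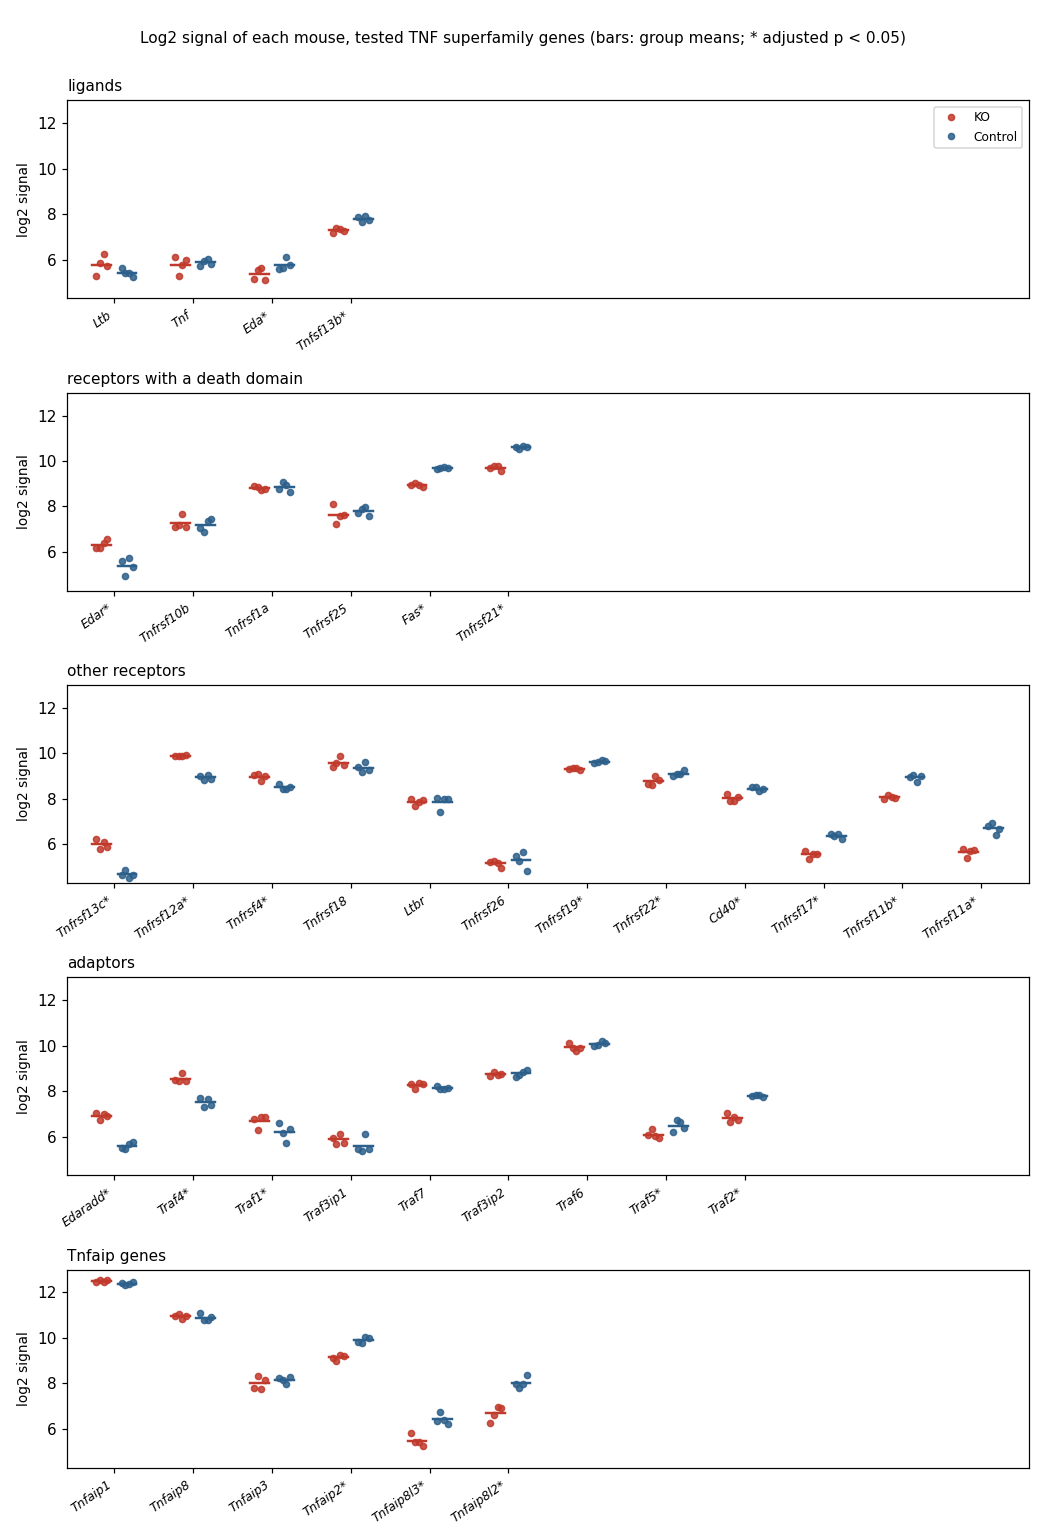
Log2 signal of the brightest probe of each of the 37 tested genes in every mouse, KO (red, left of each pair) and Control (blue, right), in panels by role. Bars are group means, and an asterisk marks an adjusted p below 0.05. Edaradd, Traf4 and Tnfrsf12a lie wholly above in KO skin, and Traf2, Fas and Tnfrsf21 wholly below.

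Among the receptors without a death domain 12 of 19 were tested, and 3 were higher and 6 lower (75% called, against 63.8% of all genes). Tnfrsf13c, the BAFF receptor of B cells, had signals of 6.21, 5.81, 6.12 and 5.89 in KO skin, against 4.64, 4.88, 4.53 and 4.66 in Control skin. It was detected on 4 of 4 KO arrays and on 0 of 4 Control arrays. Since the Control value is only a bound, the gene is given as at least 1.83-fold higher in KO skin. It entered the fit only because KO skin carried it above the detection limit, so its place among the 7 higher genes is a description and no test is given for it. It could not be tested without any 1 KO mouse, because 4 detected arrays were required.

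The B cell markers were partly detected. Of 6 listed genes, Cd79a, Ms4a1 and Pax5 were detected on 0 of 8 arrays, and Cd79b and Blnk, detected on all 8, gave -0.04 and 0.08 without a call. The mean level of these 2 was 6.33 to 6.59 in KO skin, against 6.36 to 6.54 in Control skin. Tnfrsf17 (BCMA), the receptor of plasma cells, went the other way from Tnfrsf13c, with a change of -0.81 (SE 0.09, adjusted p = 3.66e-05) and no overlap, or -0.28 without background correction.

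Tnfrsf12a encodes Fn14, the receptor for TWEAK. Its signals were 9.89, 9.90, 9.89 and 9.92 in KO skin, against 9.01, 8.84, 9.06 and 8.86 in Control skin. The KO mice were nearly equal, with an SD of 0.02 against 0.11 in Control skin. The change was 0.95 (SE 0.07, adjusted p = 2.80e-06), or 1.94-fold. Its ligand Tnfsf12 was not detected in any mouse.

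Tnfrsf11a encodes RANK, the receptor of RANKL. Its signals were 5.79, 5.38, 5.71 and 5.74 in KO skin, against 6.81, 6.95, 6.40 and 6.66 in Control skin. No KO mouse reached the lowest Control mouse. The change was -1.05 (SE 0.13, adjusted p = 9.63e-05), or 48.4% of the Control level, and it was -0.40 without background correction. Tnfrsf11b encodes osteoprotegerin, the soluble decoy that binds RANKL, and it had signals of 7.98, 8.18, 8.08 and 8.02 in KO skin, against 8.96, 9.06, 8.75 and 9.0 in Control skin. This decoy was lower too, by 0.88 (change -0.88, SE 0.09, adjusted p = 1.69e-05), with no overlap. Receptor and decoy of RANKL thus both fell, and RANKL itself was not detected.

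Tnfrsf19 (TROY), an orphan member with a known relation to hair follicle stem cells, had signals of 9.29, 9.35, 9.34 and 9.28 in KO skin, against 9.58, 9.62, 9.68 and 9.66 in Control skin. The groups did not overlap, although the change was small at -0.32 (SE 0.06, adjusted p = 0.00151). Its second probe gave -0.26 without a call (adjusted p = 0.154). Cd40, the costimulatory receptor of antigen-presenting cells, was lower by 0.43 (adjusted p = 0.00208). Of its other tested probes 1 was lower by 0.50 (adjusted p = 3.09e-04) and the dimmest gave -0.03 without a call (adjusted p = 0.890). Of 4 tested dendritic and Langerhans cell markers 3 were lower (75%, against 34.4% of all genes) and 1 higher (25%, against 29.4%). Their mean level was 11.23 to 11.40 in KO skin, against 11.50 to 11.60 in Control skin, and their part was not tested. Tnfrsf22, a decoy receptor for TRAIL in the mouse, was lower by 0.35 (adjusted p = 0.0154). The call of Tnfrsf22 was lost when its probes were averaged (change -0.16, adjusted p = 0.173), and whether its probe also reads the closely related Tnfrsf23 was not tested.

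Tnfrsf4 (OX40), a receptor of activated T cells, was higher by 0.46 (SE 0.09, adjusted p = 0.00126) with no overlap. Of 9 tested T cell markers none was higher and 4 were lower (44.4%, against 34.4% of all genes), with a median change of -0.09. Their mean level was 6.55 to 6.67 in KO skin, against 6.84 to 6.96 in Control skin. Tnfrsf18 (GITR), Ltbr and Tnfrsf26 gave 0.24, 0.02 and -0.15 and did not pass. Tnfrsf1b, the second TNF receptor, was detected on 0 of 8 arrays by either of its probes, as were Tnfrsf8, Tnfrsf13b and Tnfrsf14, while Tnfrsf9 and Tnfrsf23 were detected on 1 array each.

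**Figure D3:**
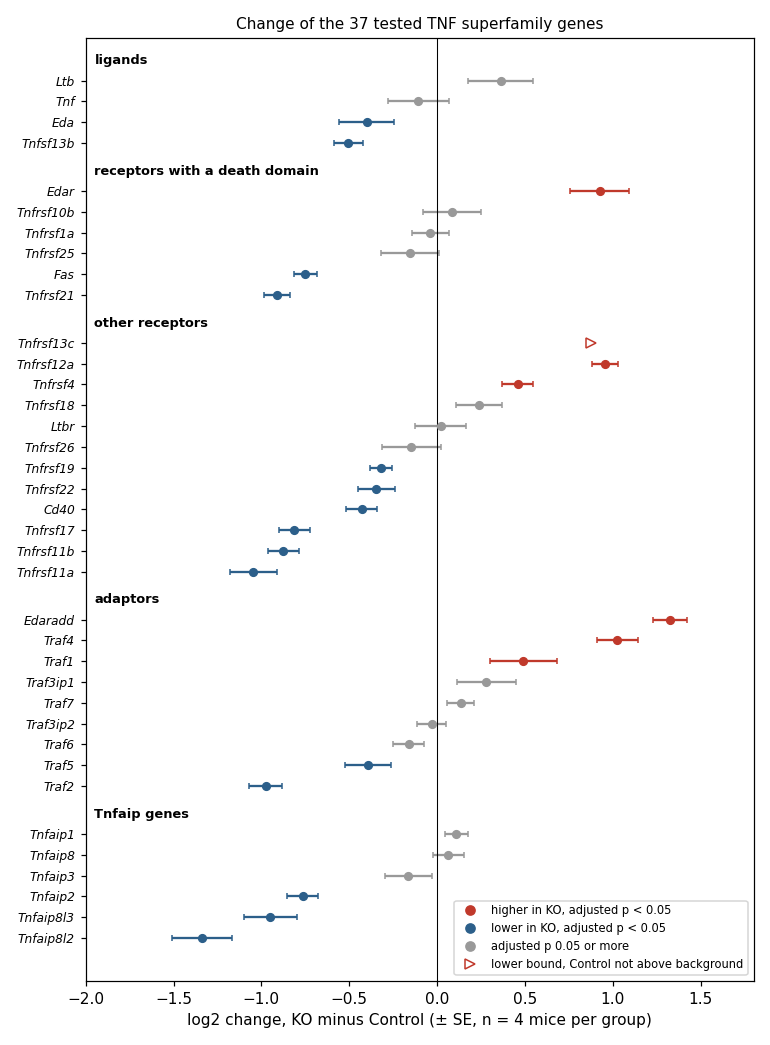
Log2 change, KO minus Control, of the 37 tested genes with its standard error (n = 4 mice per group), grouped by role. Red marks genes higher in KO skin and blue genes lower in KO skin at adjusted p below 0.05, and grey marks the rest. Edaradd stands at 1.32 and Tnfaip8l2 at -1.34, and the open triangle is the lower bound of Tnfrsf13c, which was not above background in Control skin.

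The adaptors split, with 3 higher and 2 lower of 9 tested (55.6% called, against 63.8% of all genes). Apart from Edaradd, the clearest changes were at Traf4, which was higher, and Traf2, which was lower. Traf4, a TRAF protein of epithelial cells, had signals of 8.47, 8.46, 8.80 and 8.45 in KO skin, against 7.70, 7.32, 7.65 and 7.40 in Control skin. KO mouse 3 was above the other 3, which were nearly equal, and the groups did not overlap. The change was 1.03 (SE 0.12, adjusted p = 4.27e-05). Of its 4 tested probes a second gave 1.29 (adjusted p = 1.92e-05), while the 2 dimmest gave 0.29 and 0.10 without a call, and the mean over probes gave 0.68.

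Traf2, which recruits the cIAP ligases to TNF receptors, had signals of 7.04, 6.63, 6.86 and 6.72 in KO skin, against 7.78, 7.82, 7.81 and 7.74 in Control skin. The Control mice were nearly equal (SD 0.04), and every KO mouse was below them. The change was -0.98 (SE 0.09, adjusted p = 1.39e-05), or 50.8% of the Control level, and it was -0.55 without background correction.

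Traf1 and Traf5 passed by less. Traf1 was higher by 0.49 (SE 0.19, adjusted p = 0.0473) and Traf5 lower by 0.39 (SE 0.13, adjusted p = 0.0266), both with overlap and by 0.20 and 0.16 without background correction, and the calls were lost in 10 and 6 of 18 alternatives. The adjusted p of Traf1 ran between 0.0156 and 0.109, and that of Traf5 between 0.00701 and 0.0712. Traf6, the adaptor downstream of RANK and Edaradd, could not be read from 1 probe. Its brightest probe gave -0.16 without a call (adjusted p = 0.133), a second was lower at -0.26 (adjusted p = 0.0497) and the dimmest was higher at 0.39 (adjusted p = 0.00203). Traf7, the ciliary protein gene Traf3ip1 and Traf3ip2, the adaptor of the interleukin 17 receptor, gave 0.13, 0.28 and -0.03 and did not pass.

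**Figure D4:**
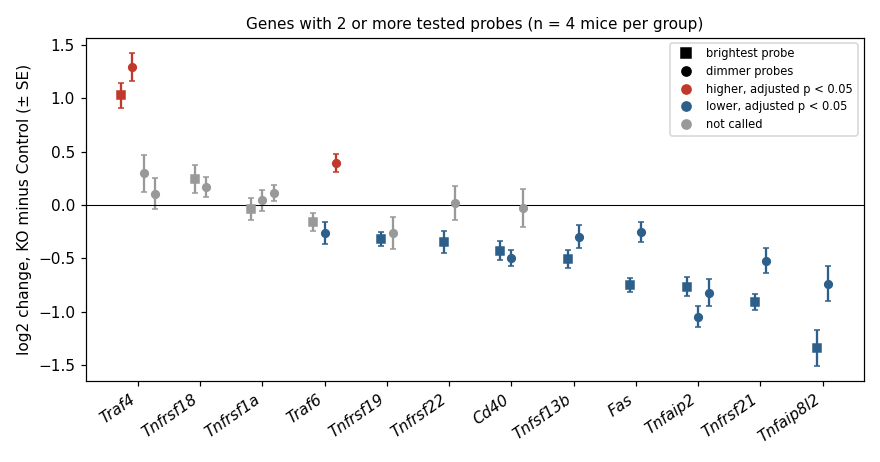
Log2 change, KO minus Control, with its standard error for every tested probe of the 12 genes that had 2 or more (n = 4 mice per group). Squares are the brightest probe of a gene and circles the dimmer ones. The probes of Traf6 were called in opposite directions, and those of Traf4 ranged between 0.10 and 1.29.

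Of the 12 genes with several tested probes, 5 had probes with different calls, and Traf6 alone had probes called both ways. At the level of probes 9 were higher and 23 lower of 55 tested, and of all 15120 probes tested 62.7% were called, 30.7% higher and 32% lower.

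Most Tnfaip genes were named for their induction by TNF and encode proteins of several kinds, while Tnfaip8 and its relatives Tnfaip8l1, Tnfaip8l2 and Tnfaip8l3 form a family. Of 6 tested, 3 were lower in KO skin and none higher (50% called, against 63.8% of all genes). Tnfaip8l2 encodes TIPE2, a regulator of immune cells, and its signals were 6.28, 6.62, 6.97 and 6.91 in KO skin, against 7.99, 7.80, 7.98 and 8.36 in Control skin. The groups were separate. The change was -1.34 (SE 0.17, adjusted p = 8.50e-05), or 39.6% of the Control level, it was -0.77 without background correction, and a second probe gave -0.74 (adjusted p = 0.00303). It fell together with the macrophage markers, whose ranges are given beside Tnfsf13b and whose part was not tested.

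Tnfaip8l3, a relative that transfers phosphoinositides, had signals of 5.84, 5.44, 5.41 and 5.25 in KO skin, against 6.36, 6.76, 6.41 and 6.21 in Control skin. KO mouse 1 came nearest to the Control mice but remained below them. The change was -0.95 (SE 0.15, adjusted p = 3.78e-04), and it was -0.33 without background correction. Tnfaip2, linked to the exocyst and to membrane protrusions, had signals of 9.11, 9.01, 9.26 and 9.20 in KO skin, against 9.84, 9.78, 10.02 and 10.0 in Control skin. All 3 of its probes were lower with no exception, at -0.77, -1.05 and -0.82 (adjusted p = 4.44e-05, 1.27e-05 and 3.02e-04).

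Tnfaip3 encodes A20, the feedback inhibitor of NF-kB. It had signals of 7.79, 8.32, 7.77 and 8.15 in KO skin, against 8.25, 8.16, 7.99 and 8.29 in Control skin. The groups overlapped, and the change was -0.16 (SE 0.14, adjusted p = 0.318). Tnfaip1 and Tnfaip8 gave 0.11 and 0.06 without a call, and Tnfaip6 and Tnfaip8l1 were not tested.

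The genes that carry the signal onward were read from lists that the naming rule does not cover. Of 24 tested kinases, ligases and adaptors below the receptors, 3 were higher and 7 lower (41.7% called, against 63.8% of all genes), with a median change of -0.13. Mlkl, the effector of necroptosis, had signals of 8.55, 8.66, 8.68 and 8.54 in KO skin, against 8.16, 7.94, 7.82 and 7.93 in Control skin. It was higher in every KO mouse, by 0.64 (SE 0.09, adjusted p = 1.42e-04). Tnip2, a partner of A20, was lower by 0.57 (adjusted p = 2.35e-04), and Tab3, a subunit of the TAK1 complex, was higher by 0.53 (adjusted p = 3.17e-04).

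Of 9 tested NF-kB subunits and inhibitors none was higher and 4 were lower (44.4%, against 34.4% of all genes lower and 63.8% called in either direction), with a median of -0.21. Relb, a subunit of the non-canonical pathway, had signals of 7.25, 7.40, 6.95 and 7.33 in KO skin, against 7.99, 7.99, 8.13 and 7.78 in Control skin. It was lower without overlap, at -0.74 (SE 0.11, adjusted p = 3.31e-04). Nfkb2, the precursor of the partner of RELB, changed by -0.43 (adjusted p = 0.00119), and Rela, the canonical subunit, by -0.31 (adjusted p = 0.00522).

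Of 19 tested genes that NF-kB is known to induce, 10 were higher in KO skin (52.6%, against 29.4% of all genes) and 4 lower (21.1%, against 34.4%), and the median change was 0.46. Whether this list differs from the others was not tested. Cxcl10, a chemokine for T cells, had signals of 9.02, 8.91, 9.0 and 9.0 in KO skin, against 6.77, 7.0, 6.90 and 6.99 in Control skin. The change of 2.07 (SE 0.07, adjusted p = 2.14e-08) was far larger than the spread of either group. The alarmin gene S100a8 was higher by 1.15 (adjusted p = 2.82e-07) and the acute-phase gene Saa3 by 1.95 (adjusted p = 4.70e-07). S100a9 of the same list, named after its value was seen, gave -0.17 without a call (adjusted p = 0.216). The 4 lower genes included Mmp9, a matrix protease, at -1.32 (adjusted p = 8.67e-07) and Sele, the adhesion molecule E-selectin of endothelium, at -1.02 (adjusted p = 3.02e-04), both named after their values were seen. Sele was detected on 1 of 4 KO arrays and 4 of 4 Control arrays, so it is close to background in KO skin. Many genes of this list also answer to other signals.

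Of the receptors and ligands with names outside the rule, Ngfr was the only one of 3 tested that passed. This receptor of neurotrophins had signals of 7.76, 7.90, 7.77 and 7.70 in KO skin, against 9.43, 9.35, 9.41 and 9.52 in Control skin. It was lower by 1.65 (change -1.65, SE 0.07, adjusted p = 7.53e-08), a larger change than that of any tested member. Relt and Cd27 did not pass, and Fasl, Cd40lg and Cd70 were detected on at most 1 array.

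**Figure D5:**
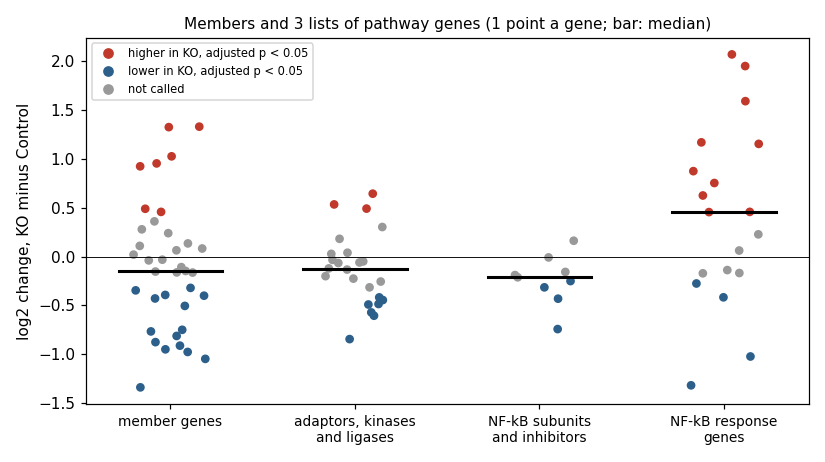
Log2 change, KO minus Control, of each tested gene in the members and in 3 lists of pathway genes (1 point a gene, bar at the median). Red marks genes higher and blue genes lower in KO skin at adjusted p below 0.05. The medians are -0.15 for the members, -0.13 for adaptors, kinases and ligases, -0.21 for NF-kB subunits and inhibitors and 0.46 for NF-kB response genes.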

How the data were processed

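Whole back skin of 4 KO and 4 Control mice was measured on Illumina bead arrays, 1 array per mouse. The authors deposited the mean bead intensity of each probe without background subtraction or scaling, with, per the file headers, a detection p-value against negative control beads. The submitters' notes name GenomeStudio 2011.1. A second deposited set of intensity values, already normalized by the authors, served as an alternative; these values are linear and uncentred, with a median of 39.1 on each array, and the kind of normalization was not given in the sources used. In the platform annotation 23978 probes had 1 gene symbol, 0 several and 1719 none.

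The function neqc (limma 3.58.1, R 4.3.3, offset 16) corrected the background, equalized the quantiles and took log2. Probes with detection p below 0.05 on at least 4 arrays (15120) were fitted with lmFit and eBayes, and p-values were adjusted by Benjamini-Hochberg over all of them (threshold 0.05). The brightest tested probe stood for a gene. A bound replaces the fold where a group had no detected array: the KO mean against, per Control array, the higher of the probe's own signal and the lowest signal of a detected probe. The fit was tested on simulated data. The number of arrays limits the precision, and the symbol rule was read so that only Traf needs a digit.

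The members, roles and gene lists were chosen with earlier results of these data known, and no p-value was adjusted over a list alone. Values per mouse are given for a preset group of genes and, in each role, for up to 4 called genes without overlap and with the largest change, and the rest by counts or changes. From each pathway list up to 3 genes with the smallest adjusted p are given. Single values were also compared by an exact permutation test. Alternatives were other background corrections, scalings and filters, a replicate block, the methods' t-test, the mean over probes and leaving out mice.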

Additional observations from a re-analysis of the deposited data

Results flagged for a closer look

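In each of 74 groups of 4 mice (37 tested genes in KO and in Control skin), the gap between the most distant mouse and its nearest neighbour was divided by the range of the group, and values above Dixon's critical value for 4 samples were noted. This was so in 6 groups. Chance alone marks about 1 in 20 groups. KO mouse 3 stood apart high for Traf4 (0.944) and for Tnfrsf10b (0.839), and KO mouse 2 stood apart low for Traf1 (0.843). Control mouse 2 stood apart low for Ltbr (0.959) and for Tnfrsf21 (0.881), and Control mouse 3 stood apart high for Traf3ip1 (0.844). Without Control mouse 3, Traf3ip1 passed the test with a change of 0.45 (adjusted p = 0.00978), and without Control mouse 2 the change of Ltbr was -0.13 without a call. The calls of Traf4 and Tnfrsf21 did not depend on any of these mice.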

How the results depend on the processing

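Across 18 alternatives, 5 to 8 member genes were higher and 13 to 15 lower, and 18 of 22 called genes kept their call and direction wherever they were tested. The exceptions were Eda, Traf1, Traf5 and Tnfrsf22. Tnfrsf13c is counted among the 18, but it was tested in only 13 alternatives and could not lose its call in the other 5. Eda lost its call without KO mouse 1 or 4 or Control mouse 2, 3 or 4, Traf1 without KO mouse 1, 3 or 4 or Control mouse 2, 3 or 4, and Traf5 without KO mouse 1, 3 or 4 or Control mouse 2 or 3. Without background correction 12 of the 22 changes shrank by over 1.5 times and only Eda lost its call, and averaging probes shrank 2. With detection required on all 8 arrays, Eda, Edar and Tnfrsf13c were not tested. Directions turned only at genes without a call. Scaling to a common median gave 0.0293 for Tnfrsf1a and 0.0368 for Traf3ip2, and averaging probes gave 0.0382 for Tnfrsf1a. With single mice left out, the change ran between -0.130 and 0.0800 for Ltbr, -0.218 and 0.0656 for Tnf, -0.0529 and 0.169 for Tnfrsf10b, -0.116 and 0.0339 for Tnfrsf1a, and -0.0780 and 0.0121 for Traf3ip2. Ltb passed without KO mouse 1 (0.53, adjusted p = 0.0125). The methods' t-test called 18 of 37 member genes at the methods' threshold and 20 after Benjamini-Hochberg. At the level of probes these counts were 23 and 27 of 55 for the members, and 6977 and 9002 of 15120 over all probes.

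Mice with the same replicate number did not deviate together (correlations -0.11, 0.01, 0.06 and -0.09), so the numbers give no pairing. With the replicate number as a block 8 member genes were higher and 15 lower, and Traf3ip1 was gained (adjusted p = 0.0423). Dim probes limit what can be read of the 20 untested genes: signals that stayed within background on most arrays give neither a level nor a direction.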
